A study of Homo sapiens with 15 samples.

Results

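Epithelial defence and acute-phase genes were followed in ccRCC cells with and without ANGPTL4. The 7 genes are PI3, SLPI, LCN2, SAA1, SAA2, C3 and CFB, of 17237 genes measured in either of 2 cell lines. They were chosen by their A4KO against WT values in these same libraries, so their levels, fold changes and counts past a threshold are descriptions and support nothing as a test. All 7 have a row in the CAKi-1 data, which hold 16296 genes, and 5 have one in the 786O data, which hold 16188. PI3 and SLPI were not analysed here in 786O.

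The data are RNA-seq of 15 libraries. CAKi-1 is a human clear cell renal cell carcinoma (ccRCC) line with wild-type VHL, the gene of the ubiquitin ligase that marks HIF for degradation, and 786O is a human ccRCC line with mutant VHL. ANGPTL4, a secreted inhibitor of lipases, was knocked out by transfecting a nuclease protein (written as Caspase 9 by the study) with a single guide RNA (sgRNA), and clones that had lost ANGPTL4 mRNA were mixed to give A4KO cells. CAKi-1 gave 4 WT and 5 A4KO libraries, and 786O gave 3 of each genotype, from untreated cells in log phase. The 786O WT cells are a mix of clones from the edited pool that kept ANGPTL4. For CAKi-1 WT the sources differ, since the series description gives a mix of such clones and the methods give unedited parental cells. A mixture of clones and a parental culture can differ by clone as well as by genotype, and these cannot be told apart here. No label says whether libraries of a group came from separate cultures, so p-values measure the spread between libraries, which may be technical.

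These genes encode proteins that epithelia and liver release in infection and tissue damage. PI3 (elafin) and SLPI are small inhibitors of neutrophil elastase with WAP domains, and LCN2 (lipocalin 2, NGAL) binds the siderophores by which bacteria take up iron and is a known marker of injury in the kidney tubule. SAA1 and SAA2 are the acute-phase serum amyloid A proteins, which travel on HDL particles. C3 is the central protein of complement, and CFB (factor B) joins cleaved C3 to form the C3 convertase of the alternative pathway. Transcription of the family is known to be switched on by IL-1, TNF and IL-6 through NF-kB, C/EBP and STAT factors.

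The positions of the genes are those of GENCODE release 44 on hg38. PI3 (ENSG00000124102.5, chromosome 20, 45174902 to 45176544, plus strand, 3 exons) and SLPI (ENSG00000124107.5, chromosome 20, 45252239 to 45254564, minus strand, 4 exons) lie 75.7 kb apart. SAA2 (ENSG00000134339.9, chromosome 11, 18239223 to 18248668, minus strand, 4 exons) and SAA1 (ENSG00000173432.13, chromosome 11, 18266260 to 18269977, plus strand, 4 exons) lie 17.6 kb apart and point away from each other. LCN2 (ENSG00000148346.12) has 7 exons on the plus strand of chromosome 9 from 128149071 to 128153453. C3 (ENSG00000125730.18) has 41 exons on the minus strand of chromosome 19 from 6677704 to 6730562. CFB (ENSG00000243649.10) has 18 exons on the plus strand of chromosome 6 from 31945650 to 31952086, and its body shares 24 bases with that of C2, the gene before it. The members thus come from 5 places in the genome.

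Promoter sequences from RefSeq were read for LCN2 and CFB, the members matched in the table used here, to show the letters before the RefSeq start of 2 genes that were higher together in CAKi-1 A4KO libraries. The GENCODE genes begin before these RefSeq starts, so both stretches lie within the gene bodies given above. Those of PI3, SLPI, SAA1, SAA2 and C3 were not analysed here. The stretches are from GRCh38.p14, plus strand, and capitals mark matches to the motifs named after them.
LCN2, chr9:128149265-128149440: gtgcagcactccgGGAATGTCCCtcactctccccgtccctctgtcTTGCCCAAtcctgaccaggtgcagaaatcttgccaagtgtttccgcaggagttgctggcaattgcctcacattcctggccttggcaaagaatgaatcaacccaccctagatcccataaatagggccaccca
CFB, chr6:31945982-31946011: cGGGGCCCTCCcgcttggatgTTCCGGGAA
The LCN2 stretch runs from 188 to 13 bases before the RefSeq start of the gene and holds a match to the NF-kB consensus motif on the opposite strand, 175 to 166 bases before the start, and a match to TTGCNNAA, the form of a C/EBP half-site pair, 143 to 136 bases before it. The CFB stretch runs from 113 to 84 bases before the start and holds a match to the NF-kB consensus, 112 to 103 bases before it, and a match to TTCNNNGAA, the form that STAT factors bind, 92 to 84 bases before it. CFB also holds TATAAA at 30 to 25 bases before its start, outside the stretch shown. On either strand, the 250 bases before the start held the NF-kB consensus in 9.96% of 35116 promoters, TTGCNNAA in 9.05%, TTCNNNGAA in 6.57% and TATAAA in 10.7%. None of the matches shown overlaps another of a different motif. A match describes letters and not a bound site, since these data hold no binding measurement.

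All values are TPM, a level scaled for transcript length and for the total of the library, so that levels can be set side by side between genes. Fold changes are differences of log2(TPM + 1), A4KO minus WT, and genes that passed a log2 fold change of 1 in either direction with a limma adjusted p of 0.05 or less, over all genes of their line, are referred to as called. The labels give a nominal 3000000 reads per sample, and the reads behind each value cannot be had from TPM. Listed values summed to between 961437 and 973887 per library. ANGPTL4 followed the labels. It was at 71.7 to 86.9 TPM in CAKi-1 WT and 2.87 to 7.26 TPM in CAKi-1 A4KO libraries (log2 fold change −3.96, SE 0.253, limma adjusted p = 1.2e-05), and fell from 18.8 ± 1.58 to 2.07 ± 0.185 TPM (SD, n = 3) in 786O (log2 fold change −2.69, SE 0.0737, limma adjusted p = 1.57e-06). Within CAKi-1 A4KO, replicates 1 and 4 stood apart. Across genes with a mean of at least 1 TPM they differed from replicates 2, 3 and 5 by 0.343 to 0.404 (root mean square of log2 values), against 0.183 to 0.212 among replicates 2, 3 and 5 and 0.179 between replicates 1 and 4. ANGPTL4 was at 7.26 and 6.47 TPM in replicates 1 and 4 and at 2.87 to 2.90 TPM in the other A4KO libraries. WT libraries of CAKi-1 lay 0.167 to 0.315 from each other, with replicate 4 farthest from replicates 1 and 2. In 786O, libraries of a group lay 0.167 to 0.176 apart and the groups 0.699 to 0.703.

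The 7 genes together made up a small part of the CAKi-1 WT transcriptome and a far larger one of the A4KO transcriptome. Their summed TPM was 0.0450%, 0.0466%, 0.121% and 0.297% of the TPM scale (100% being every transcript) in WT replicates 1 to 4, and 1.01%, 0.776%, 0.688%, 1.07% and 0.705% in A4KO replicates 1 to 5. In 786O the 5 genes measured summed to between 0.00401% and 0.00452% in WT and between 0.0108% and 0.0119% in A4KO libraries. SAA1 and SAA2 made up most of these sums. In bulk RNA, fewer cells making a transcript and less of it per cell cannot be told apart.

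**Figure D1:**
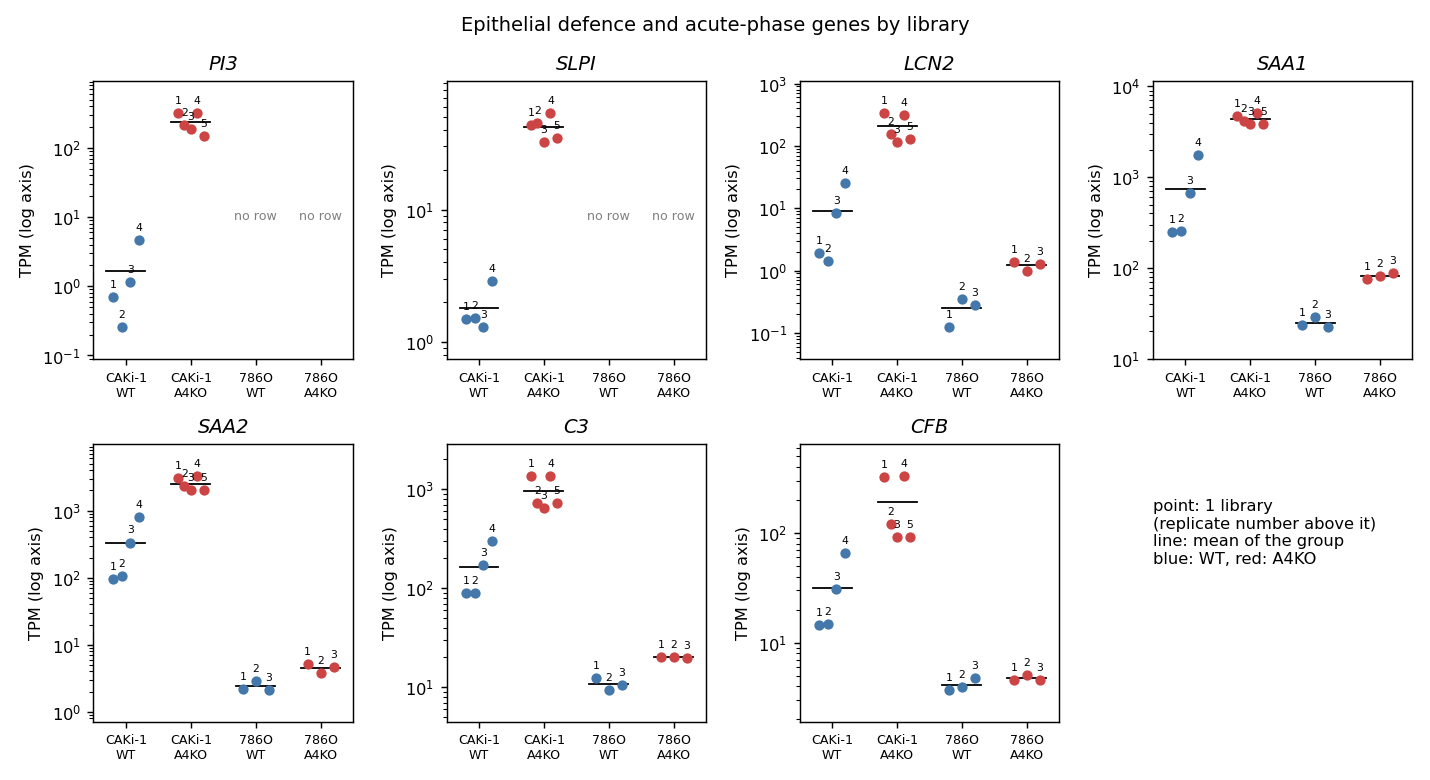
TPM of each gene in every library (log axes), with WT in blue, A4KO in red, the replicate number above each point and a line at the mean of the group; "no row" marks genes not analysed in 786O. In CAKi-1 each red point lies above each blue point of its gene, WT replicate 4 is the highest WT library, and in 786O CFB alone has overlapping groups.

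The elastase inhibitors were nearly absent from CAKi-1 WT cells. PI3 was at 0.705, 0.258, 1.16 and 4.59 TPM in WT libraries, against 317.1, 212.8, 185.4, 318.9 and 146.8 TPM in the A4KO libraries. The means were 1.68 ± 1.98 TPM (SD, n = 4) and 236.2 ± 78.2 TPM (SD, n = 5), a ratio of 140.7, or 333.8 without WT replicate 4. With a pseudocount of 0.1 the log2 fold change was 7.63. With the pseudocount of 1, its log2 fold change of 6.65 (SE 0.415) was the first in rank among the 16296 genes, and its lowest A4KO value was 32.0 times its highest WT value. SLPI, whose gene lies with PI3 in the WAP domain cluster of chromosome 20, was at 1.49, 1.52, 1.30 and 2.90 TPM in WT against 43.7, 44.9, 32.4, 53.5 and 34.6 TPM in A4KO libraries. The means were 1.80 ± 0.741 and 41.8 ± 8.53 TPM, a ratio of 23.2, with a log2 fold change of 3.94 (SE 0.186). SLPI was the only member for which A4KO replicates 1 and 4 did not both exceed replicates 2, 3 and 5. SLPI exceeded PI3 in WT replicates 1 to 3, with 1.12 to 5.88 transcripts of SLPI for each of PI3, and lay below it in WT replicate 4 at 0.632. In every A4KO library PI3 was the more abundant, and the ratio of SLPI to PI3 was 0.138 to 0.236. The WT ratios rest on PI3 values that spread over 17.8-fold.

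LCN2 had the largest steps of the 7 genes from WT replicates 1 and 2 to WT replicates 3 and 4. It was at 1.91, 1.42, 8.26 and 25.1 TPM in CAKi-1 WT against 335.4, 153.0, 117.1, 307.2 and 127.3 TPM in A4KO libraries. WT replicate 4 was 13.1 times the higher of WT replicates 1 and 2, and WT replicate 3 was 4.33 times that value. A4KO replicates 1 and 4 were at least 2.01 times any of replicates 2, 3 and 5. The group means were 9.16 ± 11.05 and 208.0 ± 104.7 TPM, a ratio of 22.7, with a log2 fold change of 4.88 (SE 0.685), which took rank 4 among all genes. In 786O the gene was near the lower end of the values, at 0.124, 0.345 and 0.278 TPM in WT and 1.37, 0.969 and 1.28 TPM in A4KO libraries. The 786O groups did not overlap, and the log2 fold change was 0.82 (SE 0.0956) with the pseudocount of 1, below the threshold. With a pseudocount of 0.1 it was 1.95 and past it, so the size of this difference is set by the pseudocount.

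SAA1 was the most abundant member in both lines. In CAKi-1 it was at 247.3, 252.9, 668.1 and 1774 TPM in WT against 4727, 4192, 3808, 5076 and 3897 TPM in A4KO libraries, and by mean level it moved from place 195 to place 19 among all genes. The means were 735.5 ± 719.7 and 4339.9 ± 545.9 TPM, a ratio of 5.90, with a log2 fold change of 3.04 (SE 0.521). The WT libraries of SAA1 thus spread over 7.17-fold while the A4KO libraries spread over 1.33-fold. SAA2 was at 94.4, 104.4, 334.7 and 795.8 TPM in WT against 3019, 2308, 2001, 3305 and 2032 TPM in A4KO libraries. The means were 332.3 ± 328.3 and 2533 ± 595.4 TPM, a ratio of 7.62, with a log2 fold change of 3.44 (SE 0.575). In 786O SAA1 was at 23.3, 28.6 and 22.4 TPM in WT and 76.5, 81.7 and 88.6 TPM in A4KO libraries, a ratio of 3.32 and a log2 fold change of 1.70 (SE 0.102). SAA2 in 786O was at 2.21, 2.89 and 2.14 TPM against 5.11, 3.75 and 4.67 TPM, and its log2 fold change was 0.69 (SE 0.121).

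The ratio of SAA2 to SAA1 was higher in A4KO than in WT libraries of CAKi-1 and lower in A4KO than in WT libraries of 786O, a contrast between lines that was not tested. In CAKi-1, SAA2 was 0.382 to 0.501 of SAA1 in WT and 0.521 to 0.651 in A4KO libraries, with A4KO replicates 1 and 4 at 0.639 and 0.651. In 786O it was 0.0945 to 0.101 of SAA1 in WT and 0.0459 to 0.0668 in A4KO libraries. In neither line did the 2 genotypes overlap. The split of reads between these genes is uncertain. Of the 488 words of 31 bases in the main SAA1 transcript, 249 (51.0%) also occur in a transcript of SAA2, SAA4 or the SAA2-SAA4 read-through, and 250 of 546 (45.8%) in that of SAA2 occur in SAA1. Kallisto divides such reads by estimation, so the sum of the genes is firmer than either level. PI3 and SLPI share 0 such words, as do CFB and C2.

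The complement genes were higher in CAKi-1 A4KO libraries by similar ratios. C3 was at 89.3, 90.4, 170.3 and 302.4 TPM in CAKi-1 WT against 1365, 731.0, 640.8, 1345 and 722.3 TPM in A4KO libraries. The means were 163.1 ± 100.3 and 960.9 ± 361.7 TPM, a ratio of 5.89, with a log2 fold change of 2.66 (SE 0.396). CFB was at 14.5, 14.7, 31.1 and 66.2 TPM in WT against 320.5, 121.0, 91.6, 331.8 and 91.4 TPM in A4KO libraries. The means were 31.6 ± 24.3 and 191.3 ± 123.8 TPM, a ratio of 6.05, with a log2 fold change of 2.59 (SE 0.564). CFB had the narrowest gap between groups of the 7, its lowest A4KO library being 1.38 times WT replicate 4, and the widest spread within A4KO, at 3.63-fold. The ratio of CFB to C3 was 0.162 to 0.219 in WT and 0.126 to 0.247 in A4KO libraries, so the groups overlapped, and A4KO replicates 1 and 4 held the highest values at 0.235 and 0.247. In 786O, C3 was at 12.3, 9.46 and 10.4 TPM in WT and 20.2, 20.2 and 19.8 TPM in A4KO libraries, a log2 fold change of 0.85 (SE 0.0884). CFB was at 3.73, 3.93 and 4.75 TPM in WT and 4.56, 5.09 and 4.54 TPM in A4KO libraries of 786O, where the groups overlapped and the log2 fold change was 0.16 (SE 0.0839).

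In CAKi-1 all 7 members were called, all higher in A4KO, against 3.33% of all 16296 genes called in either direction, 2.21% called higher and 1.12% called lower. All 7 also had every A4KO library above every WT library, which held for 16.1% of all genes. In 786O, 1 of 5 members was called (SAA1, higher), against 7.62% of 16188 genes called in either direction, 2.43% called higher and 5.19% called lower, and 4 of 5 had every A4KO library above every WT library, against 30.1% of all genes. Nothing is read from these counts, because the members were picked on the same contrast. The median log2 fold change of all genes was −0.0078 in CAKi-1 and −0.030 in 786O. Without A4KO replicates 1 and 4 the log2 fold change of CFB was 1.91 (SE 0.500), that of LCN2 4.37 (SE 0.782) and that of SLPI 3.79 (SE 0.197). Without WT replicates 3 and 4 that of LCN2 was 6.15 (SE 0.452), that of SAA1 4.10 (SE 0.123) and that of SAA2 4.63 (SE 0.216).

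**Figure D2:**
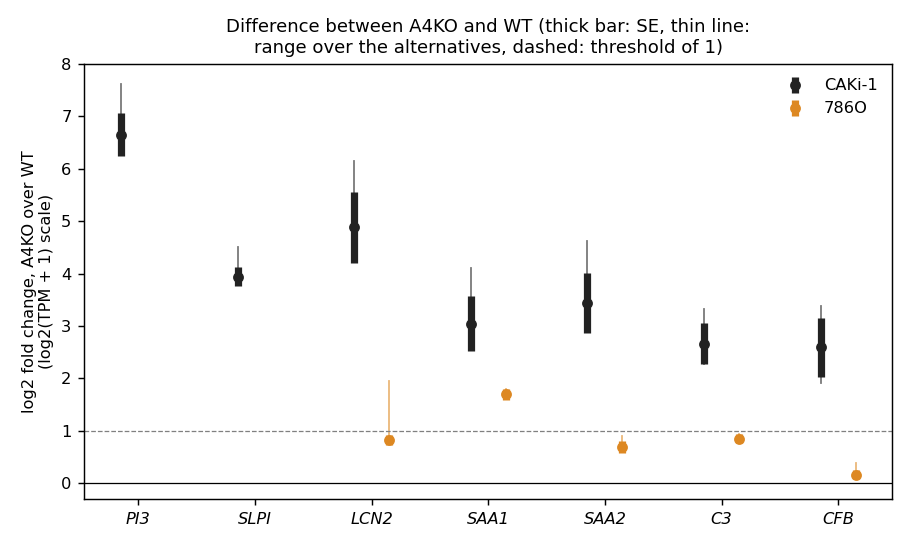
Log2 fold change of each gene (A4KO over WT, log2(TPM + 1) scale) in CAKi-1 in black and 786O in orange, with the SE as a thick bar and the range over the other settings as a thin line; the dashed line is the threshold of 1. The CAKi-1 values run from 2.59 for CFB to 6.65 for PI3, and in 786O only SAA1, at 1.70, lies above the threshold under every setting.

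The libraries formed the same steps for most members. WT replicate 4 was the highest WT library for 7 of 7 genes, WT replicate 3 exceeded WT replicates 1 and 2 for 6 of 7, and A4KO replicates 1 and 4 both exceeded replicates 2, 3 and 5 for 6 of 7, with SLPI the exception in both cases. The share of all genes with these steps was not counted, so nothing particular to the members is read from them. A4KO replicates 1 and 4 also stood apart over all genes with a mean of at least 1 TPM, as given above. For WT replicate 4 over the higher of WT replicates 1 and 2, the ratio was 1.91 for SLPI, 3.34 for C3, 4.49 for CFB, 6.52 for PI3, 7.01 for SAA1, 7.62 for SAA2 and 13.1 for LCN2. Leaving out WT replicate 4 raised the ratio of A4KO to WT means to 53.8 for LCN2, 11.1 for SAA1, 14.2 for SAA2 and 9.52 for CFB, and to 29.1 for SLPI and 8.24 for C3. WT replicate 4 held 71.7 TPM of ANGPTL4, at the low end of the WT range and well above every A4KO library.

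Levels in the lines were normalized separately, and are set side by side here without a test. For the 5 genes measured in both lines, the order was CAKi-1 A4KO, CAKi-1 WT, 786O A4KO and 786O WT. Neighbouring groups in that order did not overlap in any of the genes, except for CFB in 786O A4KO and 786O WT. LCN2 came nearest to another overlap, at 1.42 TPM in the lowest CAKi-1 WT library and 1.37 TPM in the highest 786O A4KO library. The lowest CAKi-1 WT values of SAA1 (247.3 TPM) and C3 (89.3 TPM) stood well above the highest 786O A4KO values of 88.6 and 20.2 TPM.

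Genes with the most similar profiles over the 9 CAKi-1 libraries were sought among 9135 genes that reach 10 TPM in some library. Likeness was the root mean square difference of log2(TPM + 1) values centred on each gene's mean, and most of it reflects the step between genotypes that all these genes share. The SAA genes lay closest to each other, with SAA2 nearest to the SAA2-SAA4 read-through (0.160) and to SAA1 (0.244), with both of which it shares sequence. C3 lay nearest to IQCD (0.184) and C1QTNF1 (0.259), and CFB to C1QTNF1 (0.267) and C3 (0.301). LCN2 lay nearest to CXCL3 (0.551) and C15orf48 (0.556), and PI3 to CXCL5 (0.859) and LCN2 (1.003). CXCL5 and CXCL3 are chemokines that attract neutrophils. CXCL5 was at 15.2 to 312.5 TPM in WT and 2586 to 3304 TPM in A4KO libraries, and in WT its highest library was replicate 4 and the next replicate 3, as for PI3. CLEC4E, a lectin receptor, was second to SAA2 in likeness to SAA1 (0.290).

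SLPI had other company. Its nearest genes were FAM20C (0.247), a kinase of secreted proteins, and IGF2 (0.256), the insulin-like growth factor. FAM20C was at 0.947, 1.07, 1.40 and 1.20 TPM in WT against 30.5 to 37.97 TPM in A4KO libraries, and IGF2 at 0.0117 to 0.264 TPM in WT and 15.5 to 27.2 TPM in A4KO libraries. In 786O SAA1 lay nearest to ARHGEF16 (0.0591) and MSMO1 (0.0970) over 6 libraries and 9300 genes. MSMO1, an enzyme of cholesterol synthesis, had means of 64.1 and 201.1 TPM in WT and A4KO.

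**Figure D3:**
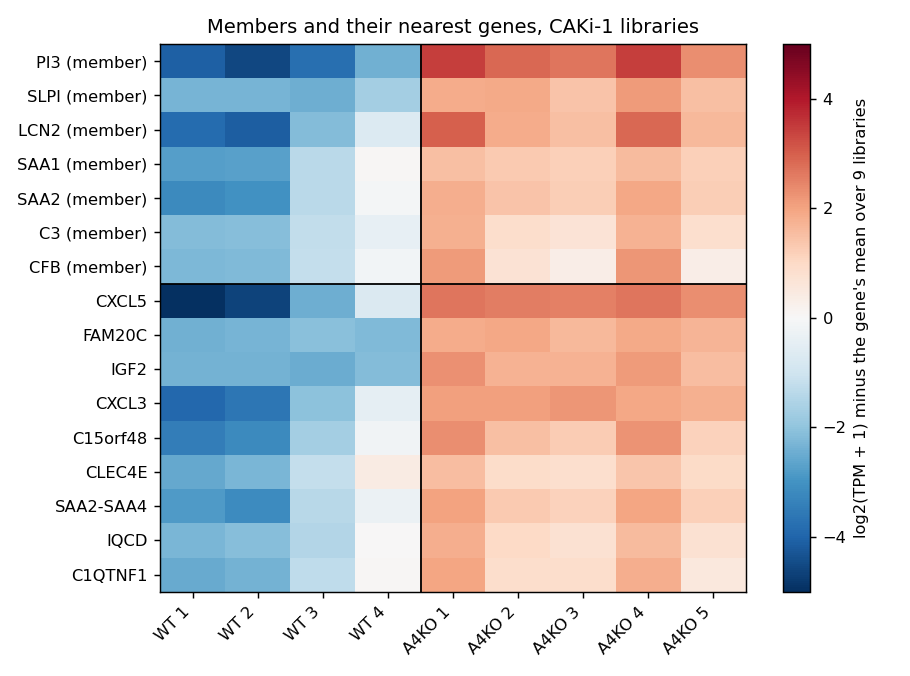
Centred log2(TPM + 1) of the 7 members (top) and their nearest genes (below) in the 9 CAKi-1 libraries, blue below and red above the mean of the gene. WT replicates 3 and 4 are paler than WT replicates 1 and 2 for all members but SLPI, whose row resembles those of FAM20C and IGF2, and members run from −4.54 to 3.45.

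Genes around the members were called about as often as all genes. Of 87 tested CAKi-1 genes with a start site within 250 kb of a member, 4 were called (4.60%, against 3.33% of all genes). They were SAA4 and SAA2-SAA4 beside SAA1 and SAA2, BBLN beside LCN2, and TUBB4A beside C3. Limma called 0 of the 11 neighbours of PI3 and SLPI, with 3 at an unadjusted p under 0.05, and 0 of the 36 neighbours of CFB, with 16 at an unadjusted p under 0.05, which 48.3% of all CAKi-1 genes had. SAA4, the constitutive serum amyloid A, was at 0.881, 1.27, 6.96 and 13.4 TPM in WT and 22.6 to 66.3 TPM in A4KO libraries (log2 fold change 2.98, SE 0.623, limma adjusted p = 0.0051), but 449 of its 600 words of 31 bases (74.8%) also lie in SAA2-SAA4. BBLN, whose start lies 11.2 kb downstream of that of LCN2, rose from a mean of 63.9 to 192.4 TPM (log2 fold change 1.56, SE 0.176, limma adjusted p = 2.1e-04). TUBB4A, a tubulin gene 228 kb from the start of C3, fell (log2 fold change −1.12, limma adjusted p = 3.5e-04). In 786O, 6 of 75 neighbours were called (8.00%, against 7.62% of all genes). C4A, C4B, DDAH2 and MSH5 near CFB and TUBB4A near C3 fell, and DPM2 near LCN2 rose, with a log2 fold change of 1.01 (limma adjusted p = 6.3e-06). The 37 neighbours of CFB in 786O had a median log2 fold change of −0.44, against −0.030 over all genes, and 28 of them (75.7%) had an unadjusted p under 0.05 in limma, against 64.5% of all 786O genes. Of 9 neighbours of SAA1 and SAA2 in 786O, limma called 0, with 4 at an unadjusted p under 0.05.

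**Figure D4:**
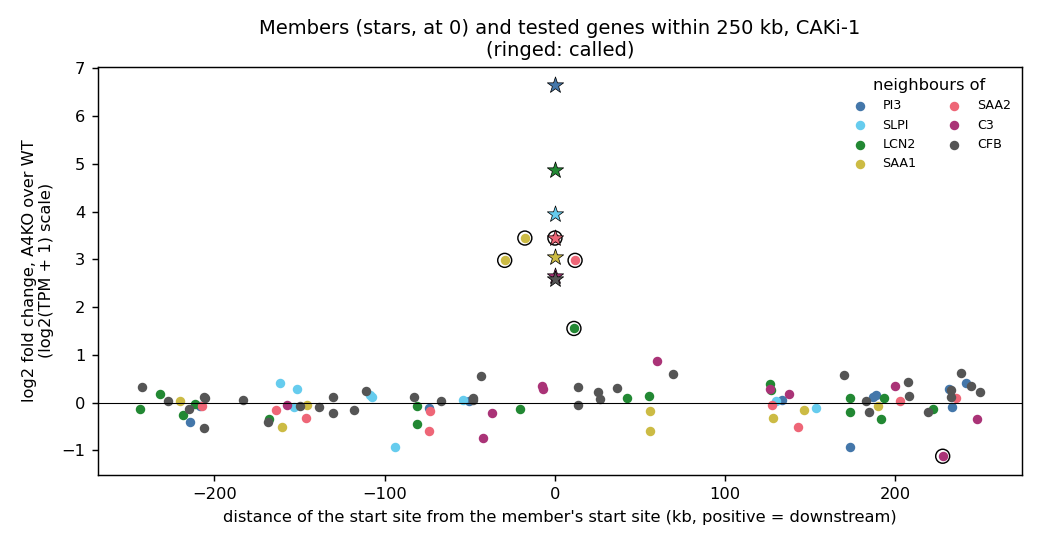
Log2 fold change in CAKi-1 (A4KO over WT) against the distance between start sites in kb, with members as stars at 0 and other tested genes within 250 kb as dots in the colour of their member; ringed dots are called genes. The ringed dots are SAA4 and SAA2-SAA4 (each drawn for SAA1 and for SAA2), BBLN at 1.56 and TUBB4A at −1.12, and the stars of C3 and CFB nearly coincide.

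Other genes of these pathways were taken from 6 lists that exclude the members. The lists were drawn up with results of these data known, so their counts describe them. In CAKi-1, 5 of the 15 measured acute phase genes were called higher and 1 lower, which is 40.0% of the list against the 3.33% of all genes, with a median log2 fold change of 0.43. PTX3, the long pentraxin, rose from 2.49, 3.10, 7.70 and 19.1 TPM to 44.1, 67.8, 63.9, 45.2 and 57.8 TPM (log2 fold change 2.98, SE 0.458, limma adjusted p = 0.0010). SERPINA1 (alpha-1 antitrypsin), a further inhibitor of neutrophil elastase, rose from 13.6, 10.3, 18.4 and 24.8 TPM to 66.4, 82.2, 75.3, 67.5 and 77.3 TPM (log2 fold change 2.14, SE 0.208, limma adjusted p = 9.3e-05). Neither had its highest values in A4KO replicates 1 and 4, unlike most members. SOD2, the mitochondrial superoxide dismutase, was called (log2 fold change 1.67, SE 0.503, limma adjusted p = 0.027), but its groups overlapped, with 1420 TPM in WT replicate 4 and 1175 TPM in A4KO replicate 5, and the call was lost without WT replicate 1, WT replicate 2, A4KO replicate 1 or A4KO replicate 4. The fifth rise, of CP (ceruloplasmin, log2 fold change 1.02, limma adjusted p = 0.0026), is named after its value was seen, and it was lost with quantile normalization and without WT replicate 1, WT replicate 2 or A4KO replicate 4.

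Of 17 measured epithelial defence genes in CAKi-1, 2 were called (11.8%, against 3.33% of all genes), both higher, and the median log2 fold change was 0.14. DEFB1, a constitutive beta-defensin of kidney tubule and other epithelia, rose from 0.541, 0.656, 0.896 and 0.789 TPM to 10.9, 6.38, 5.92, 7.76 and 4.65 TPM (log2 fold change 2.20, SE 0.189, limma adjusted p = 4.7e-05). ZC3H12A (regnase-1), an RNase that degrades the mRNAs of inflammatory proteins, rose from 6.65, 9.90, 24.4 and 63.3 TPM to 136.4, 92.0, 75.7, 132.0 and 71.2 TPM (log2 fold change 2.36, SE 0.556, limma adjusted p = 0.0090). DEFB1 and ZC3H12A thus differed in WT, since only the second had replicate 4 far above replicates 1 and 2.

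Among 14 other complement components measured in CAKi-1, 2 were called (14.3%, against 3.33% of all genes), both higher. COLEC10, a collectin of the lectin pathway, rose with a log2 fold change of 1.85 (SE 0.297, limma adjusted p = 0.0013), and C1R, a protease of the classical pathway, with one of 1.13 (SE 0.280, limma adjusted p = 0.011). C1R lost the call without WT replicate 1 or A4KO replicate 4, and without A4KO replicates 1 and 4 together, which leaves a count of 1. C2, which does in the classical pathway what CFB does in the alternative one and lies beside it, was at means of 0.347 and 0.391 TPM. Of 18 complement regulators and receptors, 1 was called (5.56%, near the 3.33% of all genes), CFI (factor I), the protease that inactivates C3b, which fell from 8.69, 6.75, 8.91 and 5.84 TPM to 1.96, 2.12, 1.81, 2.08 and 1.76 TPM (log2 fold change −1.52, SE 0.111, limma adjusted p = 2.2e-05). The median of this list was −0.16.

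Receptors and binding partners of the members held 3 calls among 15 genes in CAKi-1 (20%, against 3.33% of all genes), all higher. TGM2 (transglutaminase 2), of the enzyme family that cross-links elafin to the matrix, rose from 37.0, 45.1, 54.4 and 63.4 TPM to 311.5, 297.6, 288.3, 310.7 and 282.7 TPM (log2 fold change 2.58, SE 0.134, limma adjusted p = 3.4e-06). MMP9, the gelatinase that binds LCN2, rose with a log2 fold change of 1.19 (limma adjusted p = 5.3e-06) at a low level, from a mean of 1.81 to 5.40 TPM. FPR1, a formyl peptide receptor, was called with a log2 fold change of 1.02 (limma adjusted p = 0.015), and this was lost with quantile normalization and without WT replicate 1, WT replicate 2, A4KO replicate 1 or A4KO replicate 4. The LCN2 receptor SLC22A17 was at means of 0.390 and 1.57 TPM, with every A4KO library above every WT library. Its log2 fold change of 0.87 (limma adjusted p = 0.0039) was below the threshold, and at this level the pseudocount sets its size. LRP2 (megalin) was at means of 0.0400 and 0.0231 TPM. SLC22A17, LRP2 and C2 are named for their roles and were not called.

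Of 23 transcription factors in CAKi-1, 4 were called higher and 1 lower (21.7%, against 3.33% of all genes). CEBPB and CEBPD, the C/EBP factors of the acute phase, and NFKBIZ, a nuclear cofactor of NF-kB needed for LCN2 induction, had log2 fold changes of 1.14, 1.16 and 1.13 (limma adjusted p = 0.010, 0.036 and 0.013), and in all 3 the groups overlapped because WT replicate 4 reached the A4KO range. All 3 lost the call without WT replicate 1 and with A4KO replicates 2, 3 and 5 alone, CEBPB and CEBPD also without WT replicate 2, and CEBPD also without WT replicate 3 or A4KO replicates 1, 2 or 4. NFKBIZ was at 57.1, 71.0, 100.4 and 176.2 TPM in WT and 245.2, 186.3, 184.8, 231.2 and 172.7 TPM in A4KO libraries. FOSL1, an AP-1 subunit, fell from 284.1 to 325.6 TPM in WT to 53.3 to 163.9 TPM (log2 fold change −1.64, limma adjusted p = 0.0051). The count of 5 rested on single libraries. It was 2 without WT replicate 1, 3 without WT replicate 2, 3 without A4KO replicate 4 and 8 without WT replicate 4, and with A4KO replicates 2, 3 and 5 alone it was 1, FOSL1. The NF-kB subunits NFKB1, NFKB2, RELA, RELB and REL had log2 fold changes of −0.096, −0.13, −0.33, −0.64 and 0.34, none past the fold threshold, and are named after their values were seen.

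**Figure D5:**
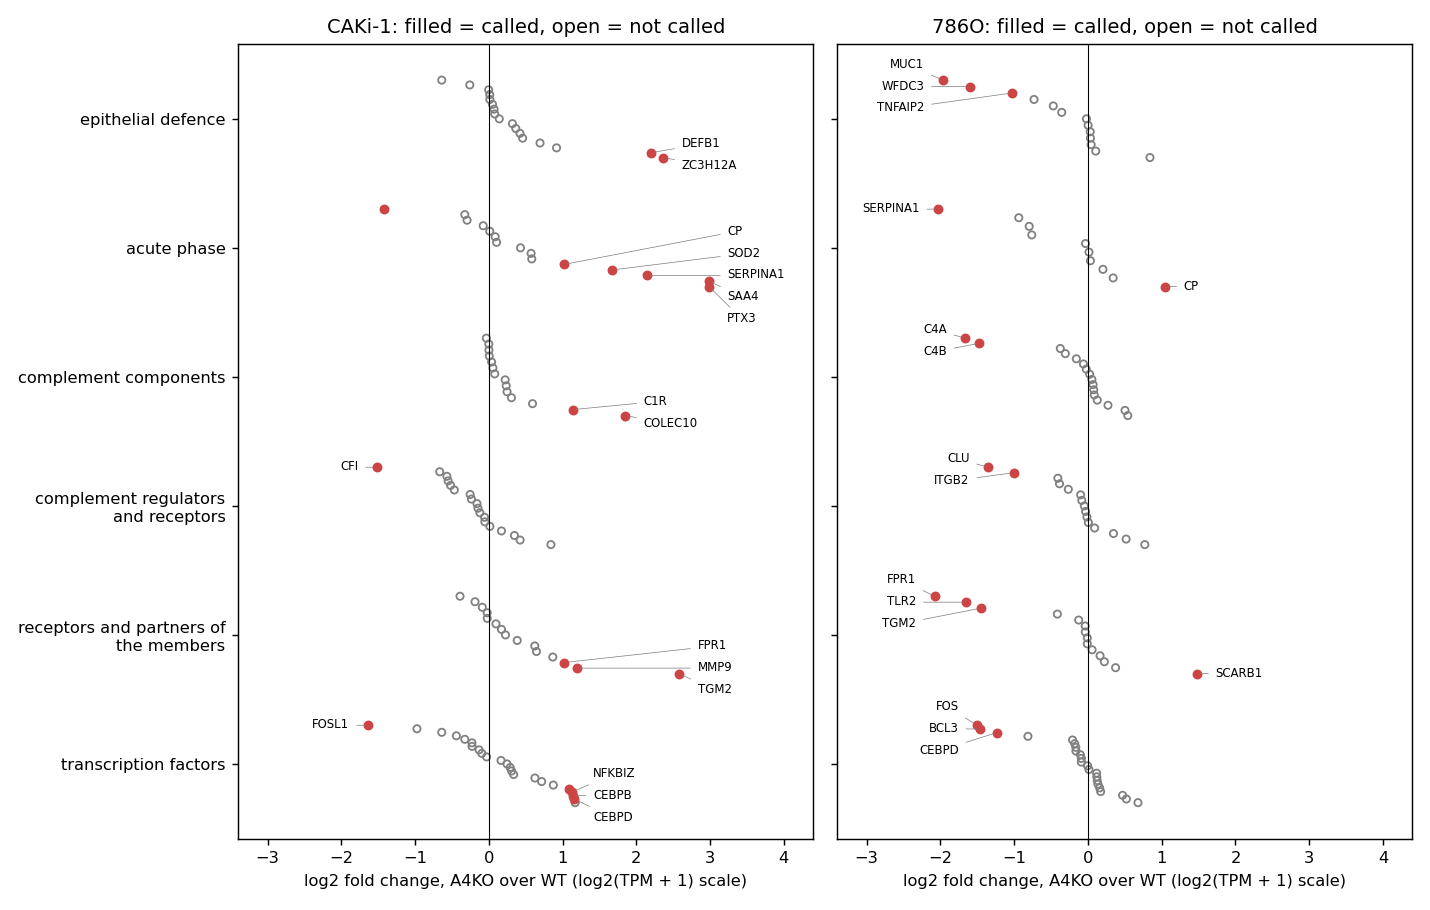
Log2 fold change (A4KO over WT, log2(TPM + 1) scale) of each measured gene of the 6 lists in CAKi-1 (left) and 786O (right), with called genes filled in red, those given in the text named, and the others open. Called genes lie mostly to the right of 0 in CAKi-1 (16 of 19, against 360 of 543 over all genes) and mostly to the left in 786O (14 of 16, against 840 of 1233).

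In 786O 14 of the 16 calls on these lists were decreases, as were 840 of the 1233 calls over all genes. The lists held 12.5% to 28.6% called genes, against 7.62% of all. Epithelial defence genes held 3 calls among 13, all lower, namely MUC1 (log2 fold change −1.97, limma adjusted p = 0.0061), the WAP domain gene WFDC3 (−1.60, 8.5e-06) and TNFAIP2 (−1.03, 1.1e-05). Acute phase genes held 1 call in each direction among 10. SERPINA1 fell from 124.9, 120.1 and 117.6 TPM to 28.2, 30.3 and 27.9 TPM (log2 fold change −2.03, SE 0.0468, limma adjusted p = 9.1e-07), and CP, the copper-carrying ferroxidase, rose from 21.6, 20.6 and 21.6 TPM to 42.5, 46.0 and 47.0 TPM (log2 fold change 1.05, SE 0.0495, limma adjusted p = 1.1e-05). Complement components held 2 calls among 16, both lower, C4A (−1.66, limma adjusted p = 5.4e-04) and C4B (−1.48, limma adjusted p = 0.0031), near-identical copies of the C4 gene between which the reads cannot be divided with certainty.

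Complement regulators and receptors in 786O held 2 calls among 15, both lower. CLU (clusterin) fell from 277.8, 273.0 and 264.6 TPM to 105.4, 113.8 and 98.6 TPM (log2 fold change −1.35, limma adjusted p = 8.2e-06). ITGB2, the beta chain of complement receptor 3, had a log2 fold change of −1.01 (limma adjusted p = 5.4e-04) and lost its call with quantile normalization and without WT replicate 1, A4KO replicate 1 or A4KO replicate 2, which leaves a count of 1. Receptors and partners held 4 calls among 14. FPR1 (−2.08, limma adjusted p = 2.0e-06), TLR2 (−1.66, limma adjusted p = 0.0013) and TGM2 (−1.45, limma adjusted p = 1.5e-06) fell. SCARB1, the HDL receptor that also binds serum amyloid A, rose from 46.6, 44.3 and 43.97 TPM to 127.3, 129.0 and 125.6 TPM (log2 fold change 1.48, SE 0.0385, limma adjusted p = 1.3e-06). Transcription factors held 3 calls among 22, all lower, FOS (−1.50, limma adjusted p = 5.6e-06), BCL3 (−1.46, limma adjusted p = 2.1e-06) and CEBPD (−1.24, limma adjusted p = 3.2e-06). The medians of the 6 lists in 786O lay between −0.050 and 0.038.

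Markers of other cells were measured beside these results. Of 15 leukocyte markers, 7 were in the CAKi-1 data, summing to 59.0 to 61.8 TPM in WT and 53.6 to 65.5 TPM in A4KO libraries, nearly all from CD68. PTPRC (CD45) was at means of 0.372 and 0.288 TPM. CSF1R rose from a mean of 1.51 to 3.35 TPM (log2 fold change 0.78, limma adjusted p = 0.0039), below the fold threshold. The groups of every other leukocyte marker measured in CAKi-1 overlapped. In 786O 5 of 15 were measured, with sums of 46.6 to 47.5 and 21.1 to 22.1 TPM, PTPRC at 0.208 and 0.272 TPM, and CD68 and CSF1R lower in A4KO. Of 13 fibroblast and endothelial markers, 6 were measured in CAKi-1, with sums of 24.7 to 33.9 TPM in WT and 50.4 to 77.1 TPM in A4KO libraries, and COL1A1 and PECAM1 rose, while LUM had a log2 fold change of −0.85 and was below WT in every A4KO library. In 786O 9 of 13 summed to 12.9 to 16.95 and 10.3 to 13.1 TPM, with LUM lower and PDGFRB higher. Their part in the members' values was not tested. PAX8, the transcription factor of renal lineage, was at means of 171.8 and 185.7 TPM in CAKi-1 WT and A4KO and 231.1 and 152.5 TPM in those of 786O. The 10 renal and ccRCC markers measured in CAKi-1 summed to 5382 to 6450 TPM in WT and 2813 to 3744 TPM in A4KO libraries. Of these, KRT8, KRT18 and CDH2 fell. The 12 in 786O summed to 5769 to 5976 and 4417 to 4469 TPM, with EPCAM, CA9 and NDUFA4L2 lower and PAX2 higher. VIM (vimentin) held most of these sums and was called in neither line. Its means in WT and A4KO were 3220 and 2287 TPM in CAKi-1 and 4508 and 3425 TPM in 786O.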

How the data were processed

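RNA from CAKi-1 and 786O cells was poly(A)-selected, made into NEBNext Ultra II libraries and sequenced in pairs. The labels give RPMI medium and the methods DMEM. The authors pseudoaligned reads to hg38 with Kallisto and deposited 1 table of gene-level TPM per line. The unit TPM was inferred from the deposited values, the Kallisto version and the summing of transcripts to genes are not given in the sources used here, nor is strand use, and TPM keeps no read number.

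A4KO libraries were set against WT libraries within a line by limma 3.58.1 in R 4.3.3 (lmFit and eBayes on log2(TPM + 1), 2-sided), and p-values were adjusted by Benjamini-Hochberg over every gene of the line, unfiltered. A call needed a log2 fold change of 1 or more in size and an adjusted p not above 0.05. The script was tested on simulated data. Groups came from the genotype labels. The tables were normalized separately, so the lines were not compared by a test.

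The members and lists were chosen with earlier results of these data known. The text names every member, ANGPTL4, up to 4 called genes per list and line with the largest change, and the 2 nearest genes of each member (of the members in 786O, SAA1 alone). Neighbours are genes with a start within 250 kb in GENCODE 44, in which 16290 of 16296 and 16185 of 16188 symbols were found. Alternatives were a pseudocount of 0.1, a mean of at least 1 TPM, quantile normalization, eBayes with trend and robust options, a block for the replicate number, leaving out single libraries, CAKi-1 A4KO replicates 2, 3 and 5 alone and, chosen after the data were seen, CAKi-1 WT replicates 1 and 2 alone. A few list genes are counted but not reported here by name.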

Additional observations from a re-analysis of the deposited data

Results flagged for a closer look

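SLPI in CAKi-1 WT replicate 4, at 2.90 TPM, stood apart from the other WT libraries, the next of which held 1.52 TPM. The gap was 0.862 of the range of the group. It was 1 of 46 CAKi-1 groups of libraries examined in this way, and chance gives about 1 in 20.

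For 8 of 31 named genes measured in both lines, every A4KO library of CAKi-1 lay above every WT library and every A4KO library of 786O below every WT library. The same held for 7.46% of the 15247 genes in both tables, but most of these 31 genes were named for large changes in 1 line, so nothing is read from the count. The difference between the lines was not tested. The log2 fold changes in CAKi-1 and 786O were 2.98 and −0.94 for PTX3, 2.58 and −1.45 for TGM2, 2.14 and −2.03 for SERPINA1, and 1.19 and −0.42 for MMP9. They were 1.02 and −2.08 for FPR1, 0.84 and −1.35 for CLU, 0.59 and −1.48 for C4B, and 0.35 and −1.01 for ITGB2. None of the 5 members measured in both lines was among them.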

How the results depend on the processing

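The fold changes of the 7 members in CAKi-1 and of the 5 in 786O kept their sign under every alternative run. At a pseudocount of 0.1, 1077 genes were called in CAKi-1 against 543, and 2095 in 786O against 1233. List counts in CAKi-1 then were 4 for epithelial defence, 2 for complement regulators and receptors and 5 for receptors and partners, and 5 for epithelial defence in 786O. The cause was not tested. With A4KO replicates 2, 3 and 5 alone, 412 genes were called in CAKi-1, from fewer libraries. They included 4 acute phase genes, 2 receptors and partners, 1 complement component and 1 transcription factor. With WT replicates 1 and 2 alone, 8 transcription factors were called. Leaving out 1 library at a time gave 4 to 6 acute phase genes, 2 to 3 epithelial defence genes and 2 to 3 receptors and partners in CAKi-1. It also gave 1 to 2 complement components and 2 to 8 transcription factors there. In 786O it gave 2 to 3 acute phase genes and 1 to 2 complement regulators and receptors. Quantile normalization gave 1 of the last, and 5 acute phase genes, 2 receptors and partners and 6 transcription factors in CAKi-1. It split the 786O calls into 519 higher and 697 lower, against 393 and 840. Of 19 list genes called in CAKi-1, 11 were called under all 16 alternatives, and 15 of 16 in 786O under all 11 alternatives. The replicate block gave 603 calls in CAKi-1 and 1233 in 786O. In CAKi-1, A4KO replicate 5 has no WT library of its number, so the block takes it out of the contrast. Leaving out A4KO replicate 5 also gave 603 calls, so the effect of the block cannot be told from the loss of that library. Deviations of libraries with the same number correlated at −0.061, 0.12, −0.035 and 0.13 in CAKi-1 and −0.046, 0.018 and 0.0061 in 786O. These values cannot decide whether such libraries shared a culture or a day, and no label says whether they did. The reads behind each value are unknown, and for values under 1 TPM, as for LCN2 in 786O WT, the pseudocount sets the fold change.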

Other observations

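CFI, which fell in CAKi-1 A4KO cells from a mean of 7.54 to 1.94 TPM, was at 39.1 to 43.0 TPM in 786O WT and 38.2 to 38.4 TPM in 786O A4KO libraries. Other complement regulators on the list were not called in CAKi-1. CD59, which blocks the membrane attack complex, was at 760.4 ± 49.8 and 478.2 ± 24.6 TPM (SD) in CAKi-1 WT and A4KO, with a log2 fold change of −0.67 (limma adjusted p = 6.8e-05), and CD55, which dissociates C3 convertases, had one of −0.47 (limma adjusted p = 5.2e-04). CLU, which also inhibits the membrane attack complex, went the other way, at 360.0 ± 34.8 and 647.6 ± 81.6 TPM (SD), with a log2 fold change of 0.84 (limma adjusted p = 3.1e-04). CD59 and CD55 are outside the naming rule, and these values were picked after they were seen.

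ELF3, an epithelial factor of the ETS family, was at 89.9, 84.9, 122.4 and 153.4 TPM in CAKi-1 WT and at 156.9 to 259.9 TPM in A4KO libraries (log2 fold change 0.87, SE 0.216, limma adjusted p = 0.011). In 786O it was at 91.7 to 98.5 TPM in WT and 147.5 to 161.9 TPM in A4KO libraries (log2 fold change 0.68, SE 0.0512, limma adjusted p = 7.0e-05). Both differences lay below the fold threshold, and ELF3 too was picked after its values were seen.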
